A study of Homo sapiens with 4 samples.

Results

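Netrin-4, netrin-1, 6 laminin chain genes and nidogen-1 (NTN4, NTN1, LAMA3, LAMA5, LAMB1, LAMB2, LAMB3, LAMC1 and NID1) were followed in the cell line labelled SCC-15, 9 genes taken by gene name from the 51103 genes in the tables. Polyadenylated RNA was sequenced from 2 libraries of cells infected with lentivirus to overexpress REEP6 (labelled REEP6-overexpression) and from 2 libraries of negative control cells (labelled NC), all from the same line. REEP6 codes for a membrane protein of the endoplasmic reticulum. The labels do not say what the control cells received, nor whether the replicates were separate cultures or separate infections. Every p-value therefore sets the difference between the groups against a spread between libraries that may be technical. The 9 genes were selected on earlier results of this contrast, the difference in count and FPKM between the REEP6 and control libraries, in which NTN4 was among the larger falls. Their differences are therefore given as a description, with no p-value. Each of the 9 names matched exactly 1 row.

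Laminins are cross-shaped trimers of an alpha, a beta and a gamma chain that form the sheet on which epithelial cells rest in a basement membrane. Nidogen binds the laminin gamma 1 chain and links that sheet to collagen IV, and perlecan and agrin are heparan sulfate proteoglycans of the same layer. Netrins are secreted proteins whose N-terminal part resembles that of laminin chains, with netrin-1 closest to gamma chains and netrin-4 closest to beta chains. Netrin-4 is known to bind laminin gamma 1 and to interfere with the assembly of laminin sheets, whereas netrin-1 is best known as a guidance cue for axons that acts through DCC and UNC5 receptors. In stratified epithelia a laminin that holds the alpha 3 and beta 3 chains anchors basal cells through the integrin of alpha 6 and beta 4.

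The gene starts differ in sequence among these genes. For that reason windows are shown for the most changed gene (NTN4) and the most abundant one (LAMB1). LAMA3 and LAMB3, the alpha and beta chain genes of the squamous anchoring laminin, are represented as well. All windows are from RefSeq on GRCh38.p14, each 300 bases long, from 250 bases before a start site to 50 after it. They are printed 5′ to 3′ on the gene's strand. Capitals mark the AP-1 letters TGAGTCA or TGACTCA and the GC box letters GGGCGG or CCGCCC, where neighbouring boxes can overlap in 1 capital run.
NTN4, window 1, chr12:95791106-95791405, minus strand: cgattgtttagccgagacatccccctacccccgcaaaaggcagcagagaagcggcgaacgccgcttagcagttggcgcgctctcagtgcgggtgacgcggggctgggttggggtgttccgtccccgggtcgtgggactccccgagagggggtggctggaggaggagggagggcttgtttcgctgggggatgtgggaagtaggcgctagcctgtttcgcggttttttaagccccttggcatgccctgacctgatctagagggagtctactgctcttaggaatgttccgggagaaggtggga
NTN4, window 2, chr12:95790715-95791014, minus strand: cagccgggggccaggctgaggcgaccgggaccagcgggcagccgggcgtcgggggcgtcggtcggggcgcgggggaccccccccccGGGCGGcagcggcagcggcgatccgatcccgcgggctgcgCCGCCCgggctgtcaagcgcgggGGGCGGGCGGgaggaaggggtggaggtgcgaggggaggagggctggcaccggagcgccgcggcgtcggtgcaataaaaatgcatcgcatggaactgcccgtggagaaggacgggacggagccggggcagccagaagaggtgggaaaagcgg
LAMB1, chr7:108003112-108003411, minus strand: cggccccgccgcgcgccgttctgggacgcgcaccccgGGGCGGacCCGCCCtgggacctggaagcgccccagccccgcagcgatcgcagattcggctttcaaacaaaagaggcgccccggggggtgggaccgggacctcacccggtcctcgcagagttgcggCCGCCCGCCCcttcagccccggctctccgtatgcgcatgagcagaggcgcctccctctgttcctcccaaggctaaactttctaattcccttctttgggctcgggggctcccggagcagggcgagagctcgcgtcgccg
LAMA3, chr18:23872770-23873069, plus strand: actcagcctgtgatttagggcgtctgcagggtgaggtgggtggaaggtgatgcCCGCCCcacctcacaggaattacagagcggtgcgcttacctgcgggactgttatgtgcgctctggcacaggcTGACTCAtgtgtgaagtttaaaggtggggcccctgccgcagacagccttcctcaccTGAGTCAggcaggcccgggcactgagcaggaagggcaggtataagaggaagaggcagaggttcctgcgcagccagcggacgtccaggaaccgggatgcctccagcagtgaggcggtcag
LAMB3, window 3, chr1:209651325-209651624, minus strand: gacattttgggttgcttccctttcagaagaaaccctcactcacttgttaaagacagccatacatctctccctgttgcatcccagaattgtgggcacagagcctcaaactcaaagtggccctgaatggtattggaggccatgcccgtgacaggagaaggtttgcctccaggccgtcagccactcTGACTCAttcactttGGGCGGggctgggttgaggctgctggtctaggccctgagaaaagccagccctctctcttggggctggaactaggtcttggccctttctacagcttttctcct

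RefSeq windows were matched for 8 of the 9 genes, 11 windows in all. The motifs were searched on both strands. An AP-1 match was found in 2 of these windows. LAMA3 held 2 matches, beginning 125 and 69 bases before the start site, and LAMB3 window 3 held 1, beginning 67 bases before it. Among all 35116 RefSeq windows an AP-1 match was present in 4.95%. NTN4 window 1 held 0 GC boxes and window 2 held 4, as did the LAMB1 window, while the LAMA5 window held 5. A GC box was present in 45.0% of all windows. The letters TATAAA were in 0 of the 11 windows and in 11.5% of all windows. A match is a stretch of letters, and no binding was measured here. The LAMA3 window lies inside the annotated gene, which runs from 23689443 to 23956222 on chromosome 18, so it marks an internal start. LAMB3 window 3 also lies inside its gene, which runs from 209614870 to 209652466 on chromosome 1. So does NTN4 window 2, in a gene that runs from 95657807 to 95791152 on chromosome 12. LAMB3 windows 1 and 2, not printed here, held 0 AP-1 matches.

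The libraries held 13236417 and 13302967 counts with REEP6 and 12856256 and 15208629 counts in the control. The introduced gene was read as a check of the labels. REEP6 had 20.0 and 20.9 FPKM in the REEP6 libraries, against 11.1 and 12.6 FPKM in the control libraries. The log2 fold change was 0.82 ± 0.108 (SE, adjusted p 0.00119 in edgeR's quasi-likelihood test). The direction followed the labels, but the rise was only 1.76-fold over a gene already expressed in the control. Its absolute change exceeded that of 92.3% of all genes tested. FPKM, the count scaled to gene length and to the library's total, allows levels of different genes to be compared. The cell type label was not borne out by the defining genes of stratified squamous epithelium: of 10 such markers KRT6A and DSG3 had 0 counts in all 4 libraries, KRT5, KRT14, KRT17 and TP63 had between 0 and 14, and only S100A2 passed the filter on low values. The simple epithelial keratins KRT8 and KRT18 lay between 164 and 231 FPKM, and CDH1 had 1 count in all. The neuroendocrine granin genes CHGA and CHGB lay between 22.8 and 41.9 FPKM.

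Genes with at least 1 FPKM in at least 2 libraries were fitted together, 13077 in all, and a gene was called when its Benjamini-Hochberg adjusted p was at most 0.05. NTN4 and the 5 laminin genes LAMA5, LAMB1, LAMB2, LAMB3 and LAMC1 passed the filter, in all 4 libraries each. NTN1, LAMA3 and NID1 did not and were not tested. Of the 6 tested genes 2 were called lower (NTN4 and LAMB2), against 14.2% of all genes tested, and 1 was called higher (LAMB3), against 10.9%. In both directions together 25.0% of all genes tested were called. The median log2 fold change of the 6 genes was -0.17 and that of all genes tested -0.01. FPKM ranges of the groups did not overlap for any of the 6, which was also so for 63.5% of all genes tested. Because the contrast was known when the genes were chosen, nothing is read from these counts.

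**Figure D1:**
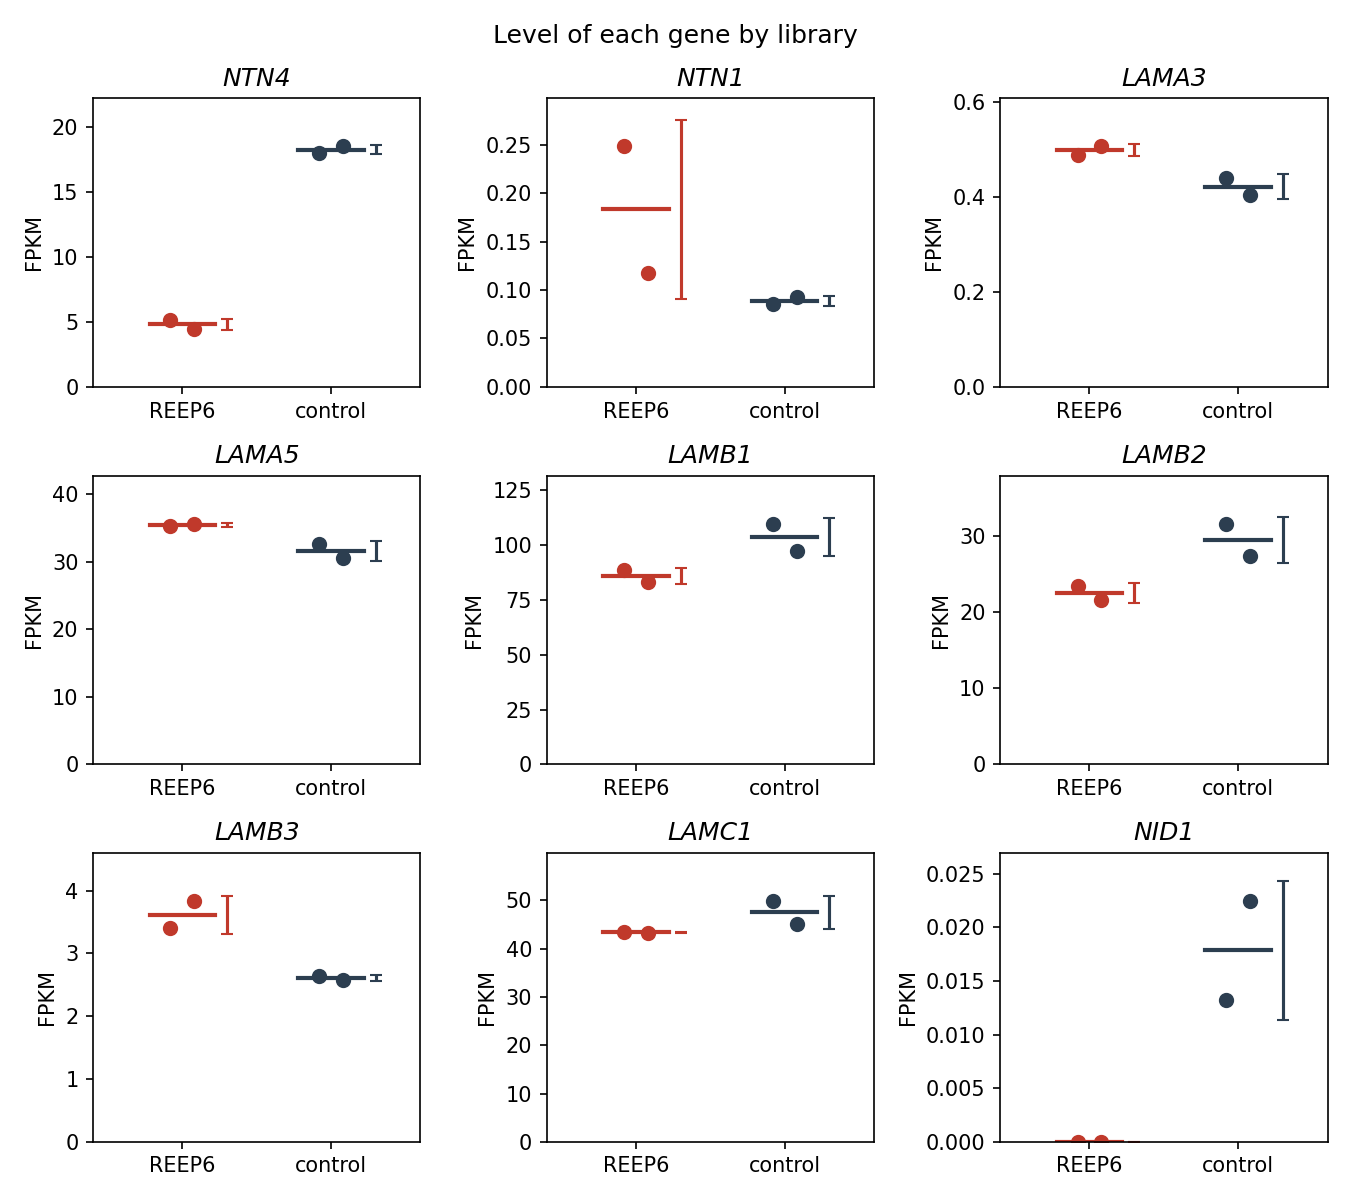
FPKM of each of the 9 genes in the REEP6 libraries (left in each panel) and the control libraries (right); points are libraries, horizontal lines are means, and the bars beside them are SD (n = 2 per group). Each panel has its own scale: LAMB1 reached 110 FPKM in a control library, whereas NID1 stayed at or below 0.0224 FPKM.

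NTN4 (ENSG00000074527, chromosome 12, 95657807 to 95791152, minus strand, GRCh38), the secreted netrin of basement membranes, had 283 and 249 counts in the REEP6 libraries, against 966 and 1176 counts in the control libraries. Its level was 5.13 and 4.49 FPKM with REEP6, against 18.0 and 18.6 FPKM in the control. Both REEP6 libraries were far below both control libraries, and the libraries of a group lay close together. NTN4 averaged 4.81 ± 0.452 FPKM with REEP6 and 18.3 ± 0.371 FPKM in the control (SD, n = 2 each), which is 3.73-fold lower (log2 fold change -1.90 ± 0.109, SE). That size exceeded the absolute change of 99.4% of all genes tested, but NTN4 was chosen with this fall known, so nothing is read from that rank. Set side by side by replicate number, which the labels do not say pairs the libraries, the log2 ratio was -1.78 for replicate 1 and -2.03 for replicate 2. In bulk RNA fewer cells that express the gene and less RNA per cell cannot be told apart.

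The pseudogene PGAM1P5 overlaps the NTN4 gene on the opposite strand and had 6 and 5 counts with REEP6, against 15 and 16 in the control. NTN1 (ENSG00000065320, chromosome 17), the netrin of axon guidance, was barely detected. It had 21 and 10 counts with REEP6, against 7 and 9 in the control, or 0.249 and 0.118 FPKM against 0.0853 and 0.0927 FPKM. REEP6 replicate 1 stood above the other 3 libraries, and REEP6 replicate 2 differed from control replicate 2 by 1 count. With no filter on low values the NTN1 log2 fold change was 1.07 ± 0.609 (SE) and was not called.

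Of the alpha chain genes, LAMA5 (ENSG00000130702, chromosome 20, 62307955 to 62367312, minus strand), the broadly expressed alpha chain of mature epithelial and vessel basement membranes, was the most abundant. It had 35.3 and 35.7 FPKM in the REEP6 libraries, against 32.7 and 30.5 FPKM in the control libraries. The log2 fold change was 0.19 ± 0.0823 (SE) and was not called, and it was 0.06 when FPKM was scaled to equal sums. LAMA5 was called higher with a length correction (0.31) and with a replicate block (0.19). LAMA5 had between 6010 and 6779 counts per library. Its neighbour ADRM1, which overlaps its 3′ end on the opposite strand, had 20.6 and 16.4 FPKM with REEP6, against 19.5 and 14.0 FPKM in the control, and LAMA5-AS1 had at most 16 counts.

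LAMA3 (ENSG00000053747, chromosome 18, plus strand), the alpha chain of the squamous anchoring laminin, stayed below the filter. It had 95 and 99 counts with REEP6, against 83 and 90 in the control, or 0.489 and 0.507 FPKM against 0.440 and 0.403 FPKM. The groups did not overlap, but the distance between them was small, and with no filter on low values the log2 fold change of 0.29 ± 0.229 (SE) was not called.

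Of the beta chain genes LAMB2 was called lower, LAMB3 higher and LAMB1 neither way. LAMB1 (ENSG00000091136, chromosome 7, 107923799 to 108003255, minus strand), the beta chain of most laminins outside the skin, had 88.6 and 83.2 FPKM with REEP6, against 109.7 and 97.3 FPKM in the control. The log2 fold change was -0.24 ± 0.0920 (SE) and was not called, although both REEP6 libraries lay below both control libraries. LAMB1 was called lower with a replicate block (-0.24), with equal FPKM sums (-0.38) and with a GC correction (-0.27). DLD, the dihydrolipoamide dehydrogenase gene whose 3′ end overlaps that of LAMB1 on the opposite strand, was lower with REEP6 too (log2 fold change -0.49 ± 0.0994 SE, edgeR adjusted p 0.00735; 0.0853 with a GC correction), and reads of the overlap cannot be told apart where strand is unknown.

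LAMB2 (ENSG00000172037, chromosome 3, 49121114 to 49133118, minus strand), the beta chain of kidney and neuromuscular basement membranes, had 23.4 and 21.6 FPKM with REEP6, against 31.7 and 27.4 FPKM in the control. It was called lower, 1.28-fold (log2 fold change -0.36 ± 0.0979, SE). LAMB2 was no longer called when REEP6 replicate 2 (-0.30 on the log2 scale) or control replicate 1 (-0.26) was left out, nor with a length correction (-0.29) or limma at any of 3 pseudocounts (-0.39 to -0.32).

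LAMB3 (ENSG00000196878, chromosome 1, 209614870 to 209652466, minus strand), the beta chain of the squamous anchoring laminin, had 211 and 239 counts with REEP6, against 159 and 184 in the control. Its level was 3.40 and 3.83 FPKM with REEP6, against 2.64 and 2.58 FPKM in the control. It was called higher, 1.41-fold (log2 fold change 0.50 ± 0.156, SE). The LAMB3 call was lost when any 1 of the 4 libraries was left out (log2 fold change between 0.42 and 0.57), when DESeq2 (0.51) or limma at any of 3 pseudocounts (0.18 to 0.45) was used, and under library totals, equal FPKM sums or a GC correction.

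LAMC1 (ENSG00000135862, chromosome 1, 183023460 to 183145592, plus strand), the gamma chain that nidogen and netrin-4 bind, had the smallest absolute difference of the 6 tested genes. It had 43.5 and 43.3 FPKM with REEP6, against 49.9 and 45.2 FPKM in the control, a log2 fold change of -0.10 ± 0.0855 (SE) that was not called. LAMC1-AS1, antisense within the gene, had 20 and 11 counts with REEP6, against 36 and 44 in the control, and did not pass (edgeR adjusted p 0.0527). NID1 (ENSG00000116962, chromosome 1, minus strand) had 0 counts in both REEP6 libraries, against 1 and 2 counts in the control libraries. A count of 0 allows up to 3 counts, or 0.0387 and 0.0385 FPKM in the REEP6 libraries, so no difference was detectable at this depth and no fold is given.

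The order of levels was the same in both groups: LAMB1, LAMC1, LAMA5, LAMB2, NTN4, LAMB3, LAMA3, NTN1 and NID1. In the REEP6 libraries the FPKM ranges of all neighbours in that order were apart. In the control libraries LAMA5 (30.5 to 32.7 FPKM) and LAMB2 (27.4 to 31.7 FPKM) overlapped and the other neighbours were apart. The ratio of NTN4 to LAMC1, in FPKM, was 0.111 ± 0.0100 with REEP6 and 0.386 ± 0.0348 in the control (SD, n = 2 each). The ratio of LAMB1 to LAMC1 was 1.98 ± 0.0815 with REEP6 and 2.18 ± 0.0325 in the control. The ratio of LAMA5 to LAMC1 was 0.818 ± 0.00949 with REEP6 and 0.666 ± 0.0143 in the control. The groups did not overlap in any of these ratios, and in FPKM they did not overlap for 63.5% of all genes tested.

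Within the alpha and beta chain classes the shares of the alpha genes differed most between the groups. LAMA5 made up 80.1 ± 0.298% of the summed FPKM of the 5 alpha chain genes with REEP6 and 61.0 ± 0.00714% in the control (SD, n = 2 each). LAMA4, the alpha chain of vessel and mesenchymal basement membranes, made up 18.1 ± 0.285% with REEP6 and 36.5 ± 0.411% in the control, and LAMA3 1.12 ± 0.0241% and 0.813 ± 0.0106%. In the beta class LAMB1 held 76.7 ± 0.139% with REEP6 and 76.3 ± 0.201% in the control, and LAMB3 held 3.24 ± 0.412% and 1.93 ± 0.139%. These are shares of RNA, not of assembled trimers.

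**Figure D2:**
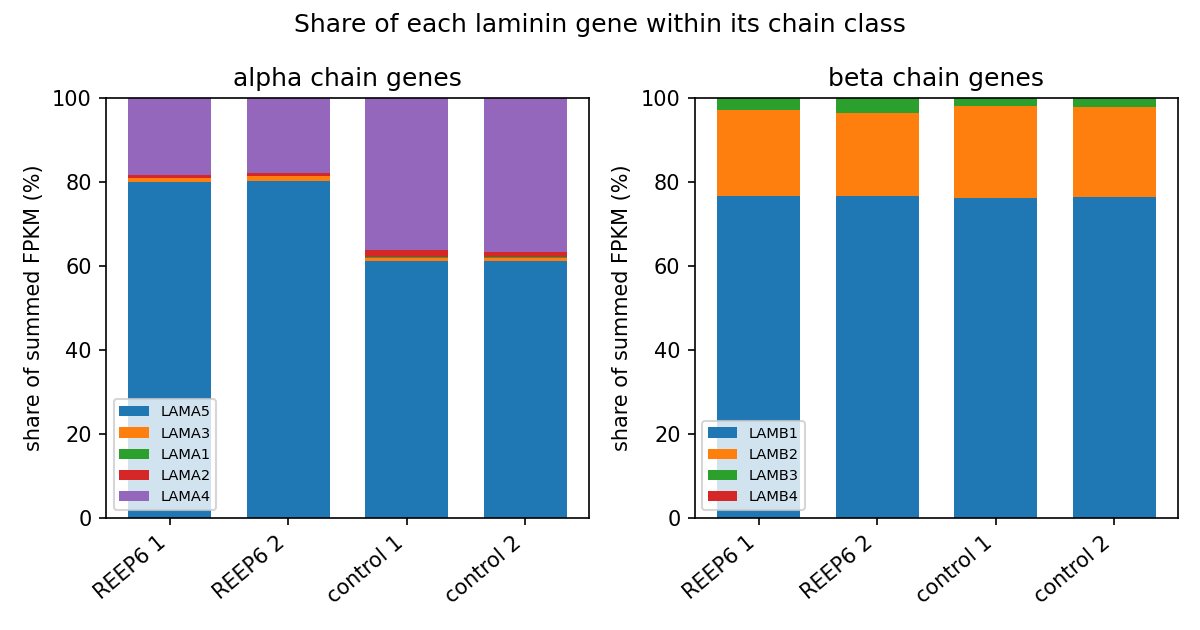
Share of each laminin gene in the summed FPKM of its chain class (alpha or beta), in percent, 1 bar per library with the REEP6 libraries on the left. The LAMA5 share was 79.9% and 80.3% in the REEP6 libraries and 61.0% in both control libraries, while LAMB1 held 76.2% to 76.8% of the beta class in all 4. LAMA5 itself was not called, and LAMA4 was called lower.

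Among the other laminin, netrin and nidogen genes, 3 of 10 were tested. Of these 1 was called lower, against 14.2% of all genes tested, and 0 were called higher, against 10.9%. LAMA4 fell to 8.06 and 7.93 FPKM in the REEP6 libraries, against 19.4 and 18.4 FPKM in the control libraries, a log2 fold change of -1.21 ± 0.0847 (SE; edgeR adjusted p 7.31e-05). Both groups were tight and well apart. NTN3 and the membrane-anchored NTNG2 were not called, at log2 fold changes of 0.10 ± 0.352 and -0.17 ± 0.0953 (SE), but NTNG2 was called lower with equal FPKM sums (-0.31, edgeR adjusted p 0.0459).

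The other 7 of these 10 genes stayed below the filter. LAMA1, an alpha chain of embryonic basement membranes, had 3 and 2 counts with REEP6, against 30 and 16 in the control. LAMA2, the alpha chain of muscle, had 45 and 43 counts with REEP6, against 117 and 95 in the control. With no filter both were called lower, LAMA1 at -3.04 ± 0.689 and LAMA2 at -1.15 ± 0.254 (log2 fold change ± SE; edgeR adjusted p 0.000230 and 0.000137), in a fit that called 6.95% of all genes with a count lower. NID2 had between 11 and 18 counts per library, and LAMB4, LAMC3, NTN5 and NTNG1 had between 0 and 54.

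Of 7 netrin receptor genes 2 were tested and they went opposite ways, 1 called higher, against 10.9% of all genes tested, and 1 lower, against 14.2%. UNC5A, a receptor that mediates repulsion from netrin-1, rose to 13.3 and 14.1 FPKM with REEP6, against 7.26 and 8.37 FPKM in the control (log2 fold change 0.83 ± 0.107 SE, edgeR adjusted p 0.00105). UNC5B, a relative expressed in vessels, was called lower, with 1.59 and 1.35 FPKM with REEP6, against 2.31 and 2.10 FPKM in the control (log2 fold change -0.56 ± 0.171 SE, edgeR adjusted p 0.0405). UNC5B was no longer called when 1 of 3 libraries was left out: its value was -0.44 without REEP6 replicate 2 (edgeR adjusted p 0.222), -0.49 without control replicate 1 (0.110) and -0.60 without control replicate 2 (0.0579). DESeq2 did not call it either (adjusted p 0.0990), nor did limma at any of 3 pseudocounts (0.102 to 0.105) or edgeR with a length correction (0.0650). NEO1, a receptor related to DCC, lay below the filter with 95 and 85 counts with REEP6, against 53 and 48 in the control. With no filter it was called higher (log2 fold change 0.95 ± 0.255 SE, edgeR adjusted p 0.00280), in a fit that called 6.80% of all genes with a count higher. DCC had 1 count in each REEP6 library and 0 in the control libraries. DSCAM had 0 counts in all 4.

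All 10 laminin receptor genes were tested, of which 2 were called higher, against 10.9% of all genes tested, 3 lower, against 14.2%, and 5 not at all. ITGB1, the beta subunit shared by most laminin- and collagen-binding integrins, had 63.8 and 64.4 FPKM with REEP6, against 120.3 and 124.8 FPKM in the control (log2 fold change -0.91 ± 0.0815 SE, edgeR adjusted p 0.000227). Its partners ITGA2 (log2 fold change -1.34 ± 0.129 SE) and ITGA1 (-1.07 ± 0.110 SE), which bind collagen as well as laminin, fell with edgeR adjusted p of 0.000341 and 0.000468. ITGB4, the beta subunit of the hemidesmosome integrin, rose to 18.9 and 17.6 FPKM with REEP6, against 14.5 and 13.1 FPKM in the control (log2 fold change 0.44 ± 0.0935 SE, edgeR adjusted p 0.00943), and dystroglycan (DAG1) had a log2 fold change of 0.40 ± 0.0895 (SE, edgeR adjusted p 0.0110). Neither was called with equal FPKM sums (edgeR adjusted p 0.0537 and 0.0511), and DAG1 was also not called with a GC correction (0.0696) or with limma on log2(FPKM + 0.1) (0.0513). The laminin-binding alpha subunits ITGA3 and ITGA6 were not called, at log2 fold changes of 0.12 ± 0.0888 and -0.10 ± 0.0804 (SE), and ITGA3 changed sign with equal FPKM sums and ITGA6 with a GC correction.

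Of 25 other basement membrane genes 8 were tested, of which COL7A1 was called lower, TINAGL1 higher and 6 not at all. COL7A1, the anchoring fibril collagen, had 27.8 and 24.5 FPKM with REEP6, against 68.8 and 54.7 FPKM in the control (log2 fold change -1.21 ± 0.120 SE, edgeR adjusted p 0.000379). TINAGL1, a matricellular protein of basement membranes, had 8.77 and 7.83 FPKM with REEP6, against 6.79 and 5.50 FPKM in the control (log2 fold change 0.46 ± 0.127 SE, edgeR adjusted p 0.0259). That call was lost without REEP6 replicate 1 (edgeR adjusted p 0.112), without control replicate 2 (0.0750), with equal FPKM sums (0.101), with a GC correction (0.0621) and with limma at any of 3 pseudocounts (0.0889 to 0.0944). Perlecan (HSPG2) and agrin (AGRN) were not called, at 0.29 ± 0.139 and 0.0019 ± 0.0967 (log2 fold change ± SE). HSPG2 was called higher with a length correction (edgeR adjusted p 0.0404), without control replicate 1 (0.0150) and with a replicate block (0.00462), and the sign of AGRN changed with the setting. The collagen IV genes were all below the filter: COL4A1 and COL4A2 had at most 13 counts in any library. Over the 4 lists together 4 of 23 tested genes were called higher and 6 lower, against 10.9% and 14.2% of all genes tested, with a median log2 fold change of 0.0019 beside -0.01 for all genes tested. With no filter on low values 4 more were called higher: NEO1 and, with at most 26 counts in any library, FREM2, PXDN and EGFLAM (log2 fold changes of 2.25, 2.51 and 2.83; edgeR adjusted p 0.0103, 0.0236 and 0.0427).

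**Figure D3:**
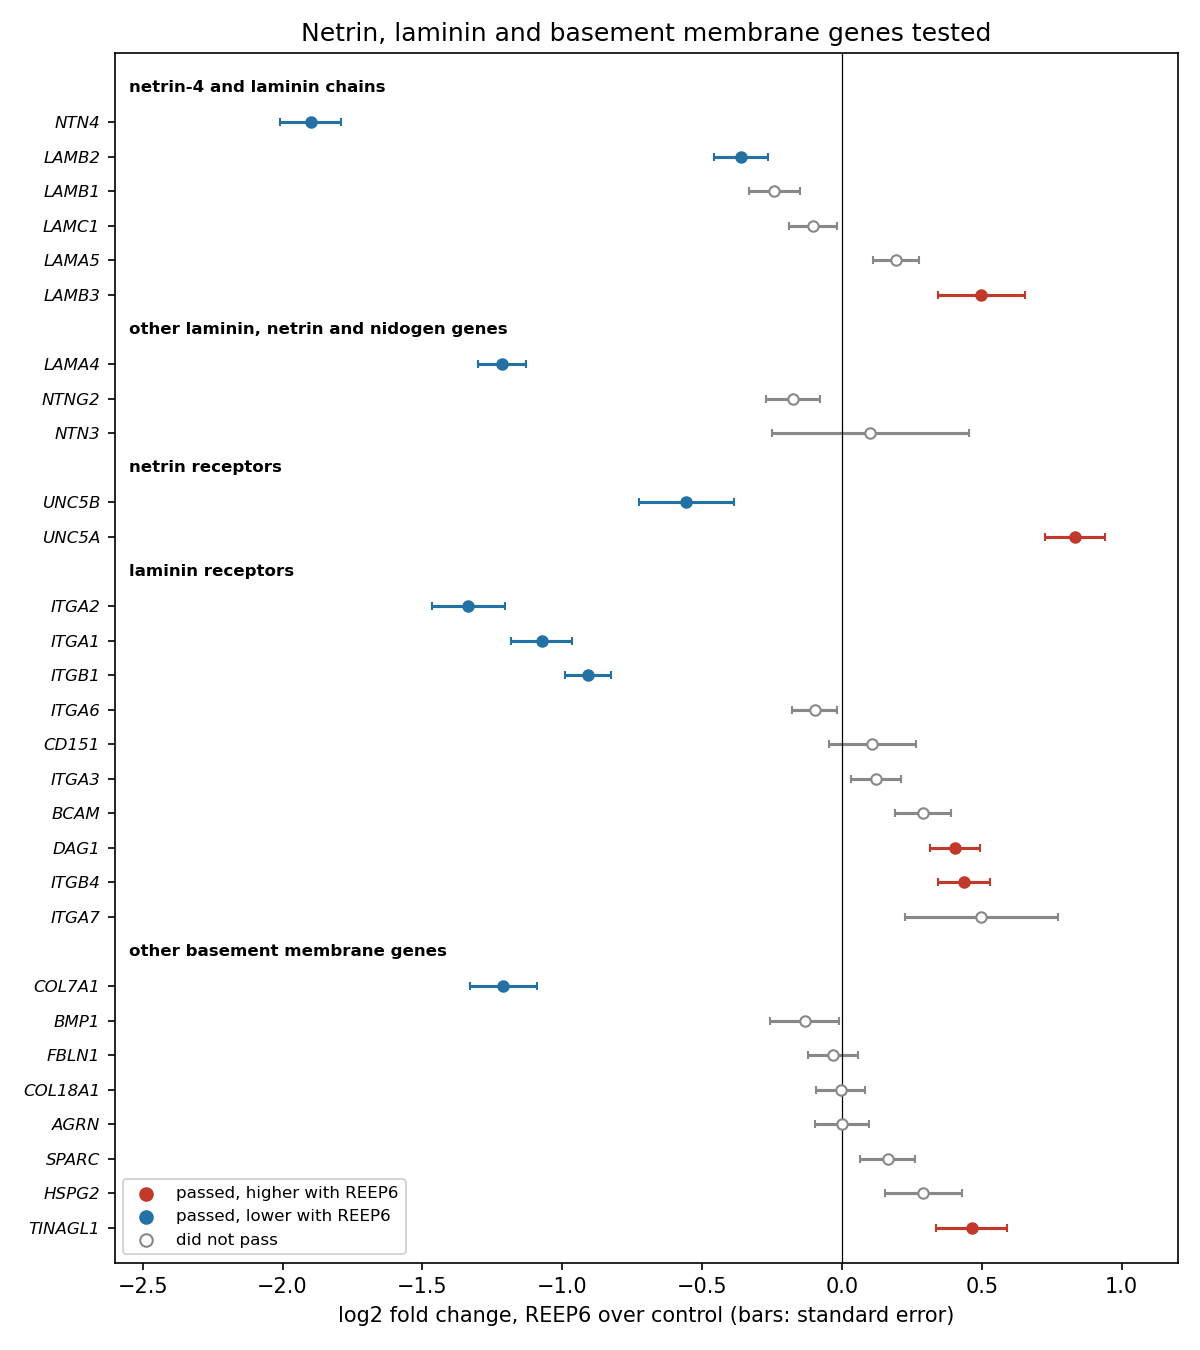
Log2 fold change, REEP6 over control, with its standard error (horizontal bars) for the tested netrin and laminin genes and for the tested genes of the 4 lists, n = 2 libraries per group. Filled points passed an adjusted p of 0.05 and open points did not; NTN4, LAMA4, ITGA2, COL7A1 and ITGA1 lie furthest to the left and UNC5A furthest to the right.

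Markers of other cell types were read beside these genes. Of 10 fibroblast markers 4 were tested and all 4 were called lower (COL3A1, LUM, POSTN and PDGFRB), against 14.2% of all genes tested. POSTN passed the filter only through the control libraries, with 0.456 and 0.289 FPKM with REEP6, against 1.57 and 1.70 FPKM in the control. The filter thus shaped which markers were tested, and nothing is read from that count. PDGFRA, which did not pass the filter, was higher in both REEP6 libraries than in either control library, with 0.986 and 1.06 FPKM with REEP6, against 0.663 and 0.709 FPKM in the control. The list summed to 18.5 and 18.2 FPKM with REEP6, against 36.8 and 34.7 FPKM in the control. Among its defining genes COL1A2, DCN and THY1 had at most 6 counts in any library. Of 8 endothelial markers 0 were tested. They summed to 0.178 and 0.146 FPKM with REEP6, against 0.577 and 0.426 FPKM in the control, with KDR at 0 in all 4 libraries and PECAM1 at 4 and 5 counts with REEP6, against 33 and 31 in the control. Leukocyte markers, with 1 gene tested, summed to 2.25 and 2.03 FPKM with REEP6, against 1.68 and 3.07 FPKM in the control. Melanocyte markers, with 0 genes tested, summed to 0.768 and 1.17 FPKM with REEP6, against 1.45 and 1.51 FPKM in the control. The part of the fibroblast markers in the lower NTN4, LAMA4 and LAMB2 levels was not tested.

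Among the 5 genes whose profile over the 4 libraries lay nearest to that of NTN4, by Euclidean distance between log2 CPM centred on each gene's own mean, with 13076 genes compared, were PLCXD3 (distance 0.0695), SCN9A (0.0815), RAB27B (0.102) and DSEL (0.202). PLCXD3 codes for a phospholipase-like protein, SCN9A for a voltage-gated sodium channel, RAB27B for a GTPase of regulated secretion and DSEL for a relative of dermatan sulfate epimerase. The log2 fold changes of these 4 ranged from -1.96 (SCN9A) to -1.71 (DSEL). RAB27B had 1.43 and 1.16 FPKM with REEP6, against 4.65 and 5.10 FPKM in the control. PLCXD3 and SCN9A passed the filter only through the control libraries. PLCXD3 had 0.977 and 0.865 FPKM with REEP6, against 3.30 and 3.46 FPKM in the control. SCN9A had 0.324 and 0.290 FPKM with REEP6, against 1.245 and 1.196 FPKM in the control. With limma on log2(FPKM + 0.1) SCN9A was not called (adjusted p 0.0666). The filter thus shaped which genes were compared, and nothing is read from the places of PLCXD3 and SCN9A. The distance rests on 4 libraries.

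**Figure D4:**
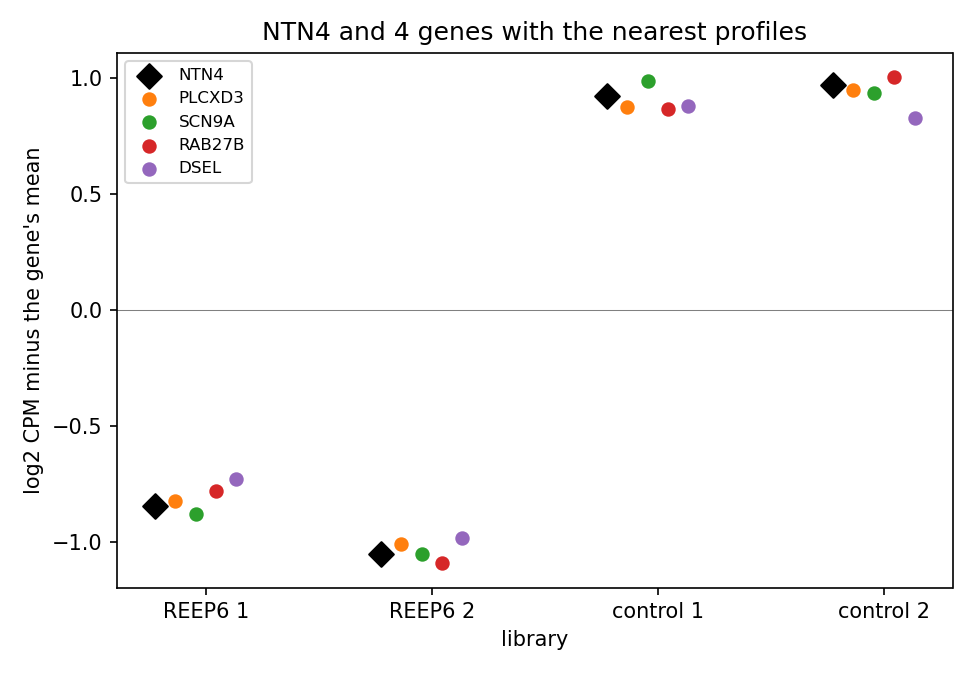
Log2 CPM minus each gene's own mean for NTN4 (black diamonds) and 4 of the 5 genes nearest to it, by library, with the REEP6 libraries on the left. NTN4 stood at -0.85 and -1.05 in the REEP6 libraries and at 0.92 and 0.97 in the control libraries.

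Over 17 alternative settings NTN4 ranged from -2.03 to -1.25 on the log2 scale and was called lower in each, and its smallest value came with a pseudocount of 5 in limma. LAMB1 ranged from -0.38 to -0.15, LAMB2 from -0.50 to -0.26, LAMC1 from -0.24 to -0.01 and LAMA5 from 0.06 to 0.31. LAMB3 ranged from 0.18 to 0.57 over the 16 settings in which it was tested. None of these 6 genes changed sign under any of these settings.

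**Figure D5:**
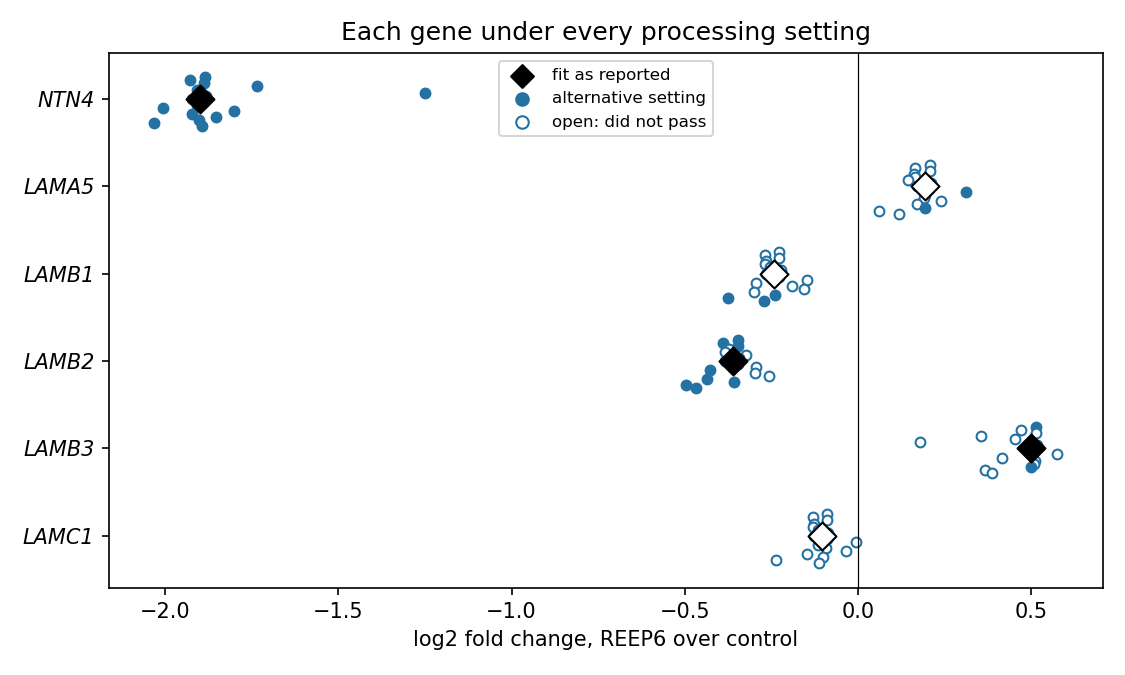
Log2 fold change, REEP6 over control, of the 6 tested genes in the fit as reported (black diamonds) and under each alternative setting (blue points); filled symbols passed the threshold of that setting and open ones did not. NTN4 stayed between -2.03 and -1.25, and LAMB3 was open under 11 of 16 settings.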

How the data were processed

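The authors deposited 1 table per library giving a raw count per Ensembl gene beside its FPKM. The submitters' processing notes name HISAT2, HTSeq 0.13.5 and the build GRCh38 without saying which step each served; annotation and strand setting were not given in the sources used here. The deposited FPKM was scaled to each table's own count total: 1 gene length fitted all libraries for 100% of 25261 genes (relative tolerance 0.0001). All identifiers matched GENCODE release 29, the source of the coordinates. Counts of genes with at least 1 FPKM in at least 2 libraries were scaled by TMM and fitted with edgeR 4.0.16 (R 4.3.3; quasi-likelihood, trended dispersion, 2 residual degrees of freedom, two-sided, Benjamini-Hochberg over 13077 genes). The SE is the fold change over the square root of F. With 2 libraries on each side the smallest exact two-sided permutation p is 0.333, so no such test was run. Libraries of 1 group differed by more than counting noise (chi-square per degree of freedom 6.24 with REEP6, 10.6 in the control). On simulated data for this comparison (13077 genes) recovery was 42.0% at 1.5-fold (100 genes), 74.0% at 2-fold (50 genes) and 86.0% at 3-fold (50 genes), beside 4 false calls. The genes, lists and tests were chosen with earlier results of these data known. Named were the 9 genes, REEP6, every called gene of 4 related lists (at most 8 each), every other laminin, netrin and nidogen gene, and the 5 nearest to NTN4; 1 listed gene and 1 of the 5 nearest are not reported here and are left out of the list counts. DLD, ITGA3, ITGA6, HSPG2, AGRN, the other genes that overlap these loci and single genes below the filter were named after their values were seen. Alternatives were other scalings and filters, DESeq2 1.42.0, limma 3.58.1 on log2(FPKM + pseudocount), a length correction, leaving out each library and a replicate block; equal FPKM sums and a GC correction (loess, span 0.3) were chosen after seeing the data.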

Additional observations from a re-analysis of the deposited data

How the results depend on the processing

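Depth limits NTN1 and NID1, which lay below the filter with at most 21 counts in any library. LAMA3 had 83 to 99 counts per library, but over its 14678 bases these came to at most 0.507 FPKM, below the filter. Every spread is limited by 2 libraries per group. Over all genes 1422 were called higher and 1853 lower. The number higher was 634, 597 and 642 with limma at pseudocounts of 1, 0.1 and 5, 936 with a minimum of 5 FPKM and 661 with equal FPKM sums. The number lower was 1233 with limma at a pseudocount of 0.1, 2824 with equal FPKM sums and 1140 with a GC correction. Leaving out 1 library gave 940 to 1495 higher (940 without REEP6 replicate 1) and 1272 to 1718 lower. Equal FPKM sums moved the all-gene median (log2) to -0.14 and the higher share of calls to 19.0%, against 43.4% with TMM, and the share was 33.3% with limma on log2(FPKM + 1).

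Of the 9 genes 1 was called higher and 2 lower. The number higher was 0 with library totals, DESeq2, limma at each pseudocount, a minimum of 5 FPKM, equal FPKM sums and a GC correction, and 2 with a length correction, LAMA5 being the addition. The number lower was 1 with limma at each pseudocount and with the length correction. LAMB1 was called lower with equal FPKM sums and with a GC correction. Leaving out 1 library gave 0 higher each time and 1 to 2 lower. In these fits the lone library of a group is assumed to vary like the other group. Over the 4 related lists, with 4 called higher and 6 lower, the number higher was 2 with limma at a pseudocount of 0.1, 8 with no filter, 1 with equal FPKM sums and 2 with a GC correction, and leaving out 1 library gave 3 to 5 higher and 5 to 6 lower.

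Replicate numbers are shared between the groups, but the labels do not say that they pair the libraries. The differences between replicates 1 and 2 in the 2 groups correlated at 0.27 (Pearson, across 13077 genes, which are not independent). With a replicate block 2960 genes were higher and 3062 lower, the 4 lists had 7 higher, and LAMA5 joined LAMB3 as higher (2 of the 9 genes) and LAMB1 joined the lower ones.

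Of 22 genes outside the 9 that were refitted under these settings, NTN3, ITGA3, ITGA6 and AGRN, none of them called, changed sign. NTN3 was -0.034 with equal FPKM sums and -0.27 to 0.61 when 1 library was left out (-0.27 without control replicate 2), ITGA3 was -0.014 with equal FPKM sums and ITGA6 0.052 with a GC correction. AGRN was -0.026 with library totals, -0.021, -0.022 and -0.017 with limma at pseudocounts of 1, 0.1 and 5, -0.021 with a minimum of 5 FPKM, -0.13 with equal FPKM sums and -0.066 with a GC correction, and -0.083 to 0.12 when 1 library was left out (-0.028 without REEP6 replicate 1, -0.083 without control replicate 2). The cause of these shifts was not tested. Of 366 values of the 22 genes, 328 kept direction and call, 21 lost the call and 4 gained it. The order of levels held for all 9 genes with counts per kilobase scaled by TMM, and 4 of the 5 genes nearest to NTN4 were also nearest by the maximum difference.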
